A study of Mus musculus with 71 samples.

Results

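The DNA replication machinery was followed here in mouse synovial sarcoma (SyS) as 40 named genes, out of 55304 genes with an annotated transcription start site (TSS). They were taken by name, from the origin recognition and licensing factors through the replicative helicase and polymerases to the enzymes that supply deoxynucleotides, and all 40 were found in the GENCODE annotation. The measurement was the set of chromatin loops at their promoters, and a loop was given to a gene when 1 of its anchors lay within 2 kb of any TSS of that gene.

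The loops came from H3K27ac HiChIP of 2 hSS2 tumors. HiChIP ligates chromatin ends that lie close together in the nucleus and then enriches the fragments with an antibody, here against acetylated lysine 27 of histone H3, a mark of active promoters and enhancers. The hSS2 allele carries the human SS18::SSX2 fusion cDNA in Rosa26 behind a floxed stop cassette, and TATCre protein injected into the hindlimb on day 8 of life removed the stop and started the tumors. Both tumors carried this one genotype and treatment, and no untreated or normal tissue entered the loop list. The animals were of a mixed CB57Bl/6-svJ strain, aged 2 to 6 months and of both sexes, and the age and sex behind each of these tumors are not given in the sources used here. Whole tumors were assayed, so the loops of SyS cells and of the immune, endothelial and stromal cells among them cannot be told apart, and in bulk tissue fewer cells with a contact and a weaker contact per cell cannot be told apart either. The tissue label could not be checked against marker expression, because the list holds loops and no expression.

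DNA replication is prepared in G1 phase, when the origin recognition complex, Cdc6 and Cdt1 load the MCM helicase onto origins, and it starts in S phase when kinases and firing factors turn the loaded helicase into a moving fork. Primase and DNA polymerase alpha then lay down primers, polymerases delta and epsilon copy the strands on the Pcna clamp, and Fen1 and Lig1 join the pieces of the lagging strand. Many of these genes are transcribed before and during S phase under E2F transcription factors, and they are active in any dividing tissue, tumors included.

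The list held 24244 loops with a total of 41574 paired-end tags, and each loop had a tag count and a false discovery rate (FDR). Of all loops, 78.0% rested on a single tag. The list consisted of 2 parts that were each sorted by position, with 28657 tags in the first and 12917 in the second, and neither was assigned to a tumor. Values per tumor are not given, so the tumors could not be tested against each other, and the intervals given below are 95% intervals that cover counting error only. Tags are amplified reads without stated molecular identifiers and may not be independent molecules.

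Promoter sequence was compared first, because E2F binding is the textbook feature of these genes and was not used to choose them. RefSeq promoters, each of 250 bases before and 50 after the start on GRCm38.p6, were at hand for 32 of the 40 genes. Where a gene had several RefSeq starts, only the most upstream one was searched. The E2F core was searched on both strands in 4 forms. The first form searched was TTCCCGC, the next was TTCGCGC, another was TTGGCGC, and the last form was TTGCCGC. It was present in 19 of the 32 promoters, which is 59.4% (Wilson interval 42.3 to 74.5), against 12.6% of 16522 protein-coding promoters and 9.72% of all 27025 promoters. The 3 promoters printed first belong to genes with no listed loop and hold the core before the start, and the other 3 belong to genes with loop scores of 13 to 22 and do not. This contrast does not hold for all genes. The looped genes Mcm7 and Cdc6 also hold a core before the start, and Mcm2, Rfc5 and Tyms have neither a loop nor a core. Each printed stretch is the 250 bases before the start, written 5′ to 3′ along the gene, with every E2F core in capitals. Mcm5 lies at chr8:75109259-75109508 on the plus strand, Mcm6 at chr1:128359706-128359955 on the minus strand and Rrm1 at chr7:102441445-102441694 on the plus strand, all intergenic in GENCODE. Cdt1 lies at chr8:122567765-122568014 on the plus strand, in an intron of the read-through gene Gm20388. Pola2 lies at chr19:5964207-5964456 on the minus strand and is intergenic, and Fen1 lies at chr19:10204394-10204643 on the minus strand, in an intron of Tmem258.
Mcm5: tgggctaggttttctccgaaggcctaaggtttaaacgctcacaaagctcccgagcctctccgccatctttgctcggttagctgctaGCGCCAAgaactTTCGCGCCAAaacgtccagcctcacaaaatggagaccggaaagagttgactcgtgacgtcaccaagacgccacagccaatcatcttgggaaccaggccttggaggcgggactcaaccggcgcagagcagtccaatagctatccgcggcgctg
Mcm6: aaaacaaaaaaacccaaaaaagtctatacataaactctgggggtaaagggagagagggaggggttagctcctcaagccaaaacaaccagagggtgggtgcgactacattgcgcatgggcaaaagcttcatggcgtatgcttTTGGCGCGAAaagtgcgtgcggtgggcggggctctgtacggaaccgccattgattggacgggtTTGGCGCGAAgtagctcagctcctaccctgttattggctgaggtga
Rrm1: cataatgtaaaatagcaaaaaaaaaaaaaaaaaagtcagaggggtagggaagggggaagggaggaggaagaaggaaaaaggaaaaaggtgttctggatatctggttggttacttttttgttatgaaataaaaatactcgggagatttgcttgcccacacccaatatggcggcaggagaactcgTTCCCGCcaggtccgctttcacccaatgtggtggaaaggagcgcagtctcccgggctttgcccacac
Cdt1: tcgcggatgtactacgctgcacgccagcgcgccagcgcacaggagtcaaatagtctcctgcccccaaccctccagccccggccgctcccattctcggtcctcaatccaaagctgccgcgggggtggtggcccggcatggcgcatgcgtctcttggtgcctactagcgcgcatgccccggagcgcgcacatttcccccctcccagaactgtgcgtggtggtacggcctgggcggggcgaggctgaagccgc
Pola2: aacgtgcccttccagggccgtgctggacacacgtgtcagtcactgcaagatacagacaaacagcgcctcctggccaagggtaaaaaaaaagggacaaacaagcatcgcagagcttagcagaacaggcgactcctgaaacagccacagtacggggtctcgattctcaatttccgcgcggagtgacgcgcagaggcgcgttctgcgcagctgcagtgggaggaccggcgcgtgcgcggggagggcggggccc
Fen1: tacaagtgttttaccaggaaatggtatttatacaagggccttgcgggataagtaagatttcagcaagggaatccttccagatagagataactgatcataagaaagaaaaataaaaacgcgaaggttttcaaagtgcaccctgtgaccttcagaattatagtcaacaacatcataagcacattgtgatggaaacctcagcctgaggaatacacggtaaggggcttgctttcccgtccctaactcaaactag

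The capitals show why a count of cores is not a count of separate sites. In Mcm5 and Mcm6, 2 cores on opposite strands share bases within 1 capitalised run, so the 3 cores of Mcm5 form 2 runs and the 4 cores of Mcm6 before its start form 2 runs. Cdt1 had 2 cores, both after the start and so outside the stretch shown, while Pola2 and Fen1 had none in the whole window. The Fen1 window lay wholly before the GENCODE start of the gene, at position 10204169, so the sequence at that start was not searched. Mcm7, the helicase subunit with the largest loop score, had 3 cores, and Cdc6 had 1. An E2F core was found in 11 of 21 promoters with a loop (52.4%, 32.4 to 71.7) and in 8 of 11 without (72.7%, 43.4 to 90.3), with intervals that overlap widely. With a further T required before the core the count was 12 of 32, against 2.95% of protein-coding promoters, and with the bases before the start alone it was 11 of 32, against 10.4%.

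Other promoter motifs stood closer to the background. The CCAAT box, searched as CCAAT, was present in 62.5% of the 32 promoters (45.3 to 77.1) and in 38.8% of protein-coding promoters, and in 3 of the genes it shared bases with an E2F core. The GC box, searched as GGGCGG, was present in 68.8% (51.4 to 82.0) against 48.0%, and it shared no bases with a core. The CHR element, searched as TTTGAA or TTCGAA, was present in 21.9% against 17.3%, which lies within the Wilson interval. Median GC content was 57.5% in the 32 promoters and 57% in all protein-coding promoters, so the base composition was close. A motif match describes letters in this window and is not evidence of binding.

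**Figure D1:**
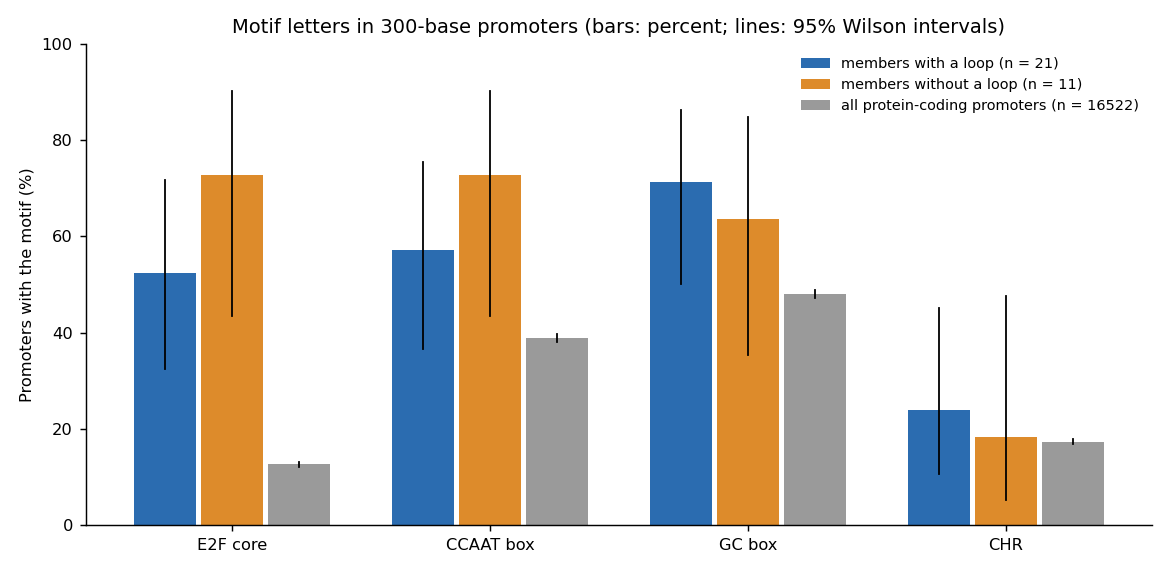
Percent of RefSeq promoters (300 bases) that hold each motif, for replication genes with a loop (21 promoters), without a loop (11 promoters) and all protein-coding genes (16522 promoters), with lines for 95% Wilson intervals. The E2F core is in 52.4% and 72.7% of the 2 groups of replication genes and in 12.6% of protein-coding promoters.

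Of the 40 genes, 25 had at least 1 loop, which is 62.5% (Wilson interval 47.0 to 75.8). The background was 45.8% of 21911 protein-coding genes and 23.9% of all genes, so the share lay above that of protein-coding genes by little more than its counting error. Together the 25 genes had 142 loops with 275 tags, which is 0.661% of all tags. The loop score, the summed tags of all loops at a gene's promoter, had a median of 2 over the 40 genes (order-statistic interval 0 to 5), against 0 for protein-coding genes. Among looped genes the medians were 5 and 4. A score of at least 10 was reached by 10 of the 40 genes, where the background was 10.9% of protein-coding genes, and a score of at least 50 by 2, where it was 1.01%. These tags were unevenly spread, since Mcm7 and Cdc6 held 37.1% of them.

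Most of the Cdc6 score did not come from its promoter. Cdc6 loads the MCM helicase together with Cdt1, and its score of 50 (46 of the tags in the first part, 4 in the second) came next after that of Mcm7. Of these tags 44, in 6 loops, came from an anchor at chr11:98921711-98925367, at the 3′ end of the gene and 13.9 kb from its start. That anchor was given to Cdc6 because of a retained-intron transcript that starts within the gene, at position 98920466, 1.25 kb away. It was the sole promoter anchor of the 35 that did not itself overlap a TSS, and thus the one that lay just inside the window. With a window of 1 kb, with RefSeq TSSs or with the GENCODE basic transcripts, the Cdc6 score was 6 tags in 5 loops (2 tags in the first part, 4 in the second). Without that anchor the 40 genes had 231 tags in 136 loops, a mean score of 5.78 instead of 6.88, and 9 genes with a score of at least 10.

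**Figure D2:**
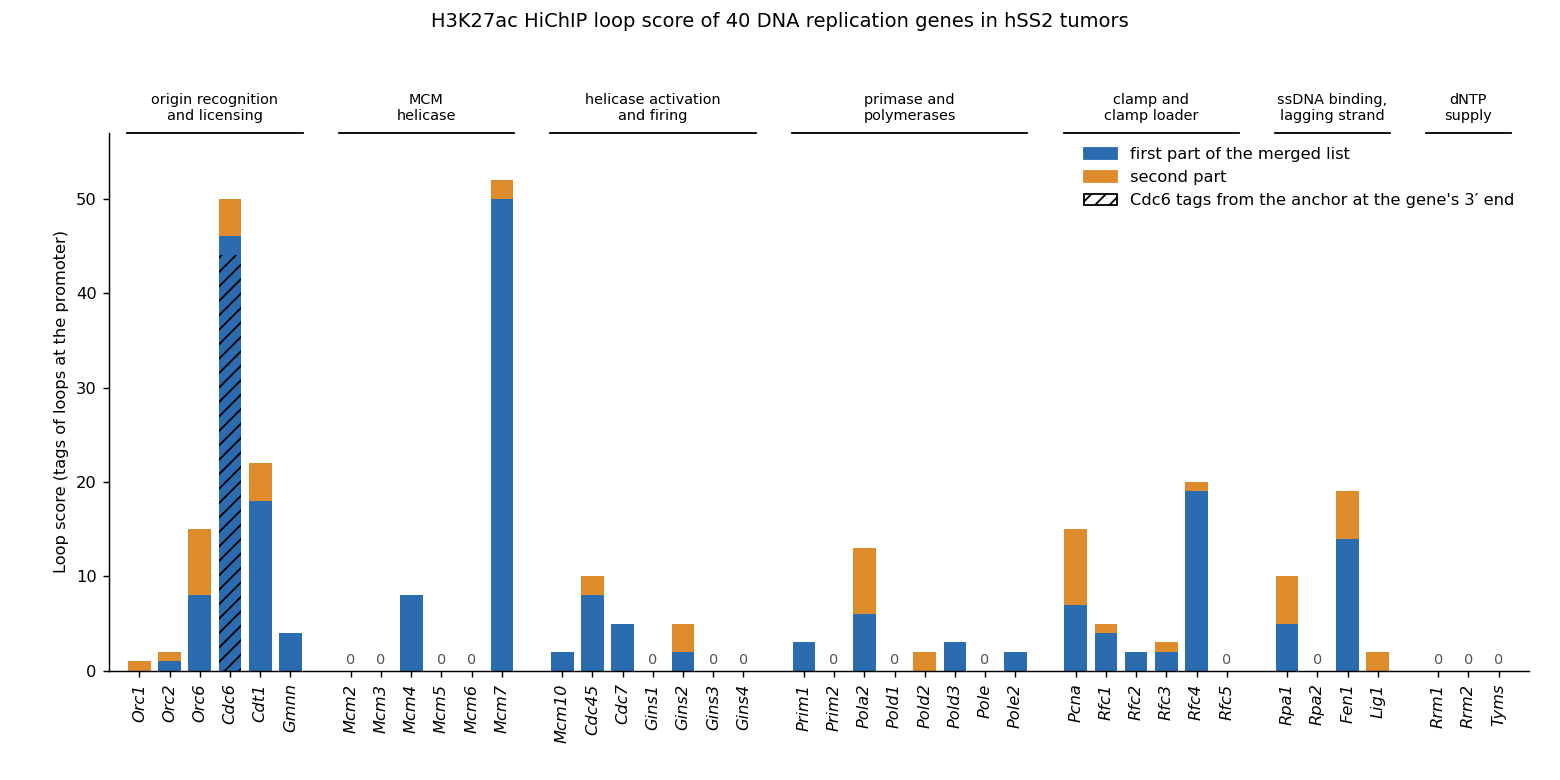
Loop score (tags) of each of the 40 replication genes, ordered by role, with the first part of the list in blue and the second in orange; genes with no listed loop are marked 0, and hatching marks the 44 Cdc6 tags from the anchor at the 3′ end of that gene. Mcm7 stands at 52 tags, and all 3 deoxynucleotide supply genes at 0.

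The 6 licensing genes all had loops (100%, Wilson interval 61.0 to 100), against 45.8% of protein-coding genes. With loops of at least 2 tags, or with an FDR under 0.01, Orc6, Cdc6 and Cdt1 kept a loop and Orc1, Orc2 and Gmnn did not. The median score of the 6 genes was 9.50 and their summed score 94, and with Cdc6 at 6, as with the GENCODE basic transcripts, these were 5 and 50. Cdt1, the partner of Cdc6 in loading the helicase, had 11 loops with 22 tags (18 in the first part, 4 in the second; Poisson interval 13.8 to 33.3). The strongest, with 9 tags over 9.38 kb, ended at the TSS of Aprt, an adenine salvage enzyme that lies next to it, and its FDR was 0.0408. Orc6, a subunit of the origin recognition complex, had 15 tags in 11 loops (8 and 7 tags in the parts), and none of its loops held more than 2 tags. Orc1 and Orc2, further subunits, had scores of 1 and 2. Gmnn encodes geminin, the inhibitor of Cdt1, and had 4 single-tag loops, all in the first part. A pair of these ended in the histone cluster on chromosome 13, 1 at Hist1h2ac and Hist1h2bc over 1077 kb and 1 at Hist1h2bb and Hist1h3c over 1015 kb.

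The MCM helicase subunits ranged widely. Mcm7 had 52 tags in 16 loops (Poisson interval 38.8 to 68.2), and 193 of 21911 protein-coding genes, or 0.881%, had at least this score. Mcm4 had 8 tags in 5 loops, all in the first part, and Mcm2, Mcm3, Mcm5 and Mcm6 had no listed loop. The list keeps loops with an FDR up to 0.05, so a gene without a listed loop may have contacts that did not pass, and no upper limit on their tags can be given. Thus the subunits of 1 stoichiometric ring ran from 0 to 52 on this scale. The Mcm7 score was also uneven between the parts of the list, with 50 tags in the first and 2 in the second. Its strongest loop, with 22 tags over 15.9 kb and an FDR of 5.86e-09, ended at the promoters of Cnpy4 and Taf6, the latter a subunit of TFIID, and its next, with 11 tags over 15.6 kb, ended at Zfp113 on the other side. These 2 loops held 33 of the 52 tags. Another loop, of 3 tags, reached Ppp1r35 over 394 kb with an FDR of 8.12e-05, and 10 of the 16 loops held 1 tag. Mcm4 met the promoters of Snai2, a transcriptional repressor known from epithelial-mesenchymal transition, over 932 kb and of Yars2 over 666 kb, with 2 tags each and FDRs of 6.42e-04 and 7.68e-04.

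Of the 7 genes for helicase activation and origin firing, 4 had loops, with a median score of 2 and a summed score of 22. Cdc45, which joins MCM and GINS in the active helicase, had 10 tags in 10 loops, each of a single tag, over 386 to 1742 kb. Cdc7, the kinase that phosphorylates MCM, had 5 tags in 3 loops, 3 of them to the promoter of Tgfbr3, a TGF-beta co-receptor, over 325 kb with an FDR of 1.68e-04. Mcm10, a fork factor that is not part of the MCM ring, had 2 single-tag loops. Gins2 had 5 tags in 4 loops, and the other GINS subunits, Gins1, Gins3 and Gins4, had none listed. The Gins2 loops differed in kind from most of the others, because 3 of the 4 ended in introns of Gse1, away from any TSS.

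Primase and polymerase genes had loops in 5 of 8 cases, with a median score of 2. Pola2, the accessory subunit of polymerase alpha, had 13 tags in 10 loops (6 and 7 tags in the parts), over 118 to 1015 kb, in the gene-dense region of chromosome 19 where 56 protein-coding genes lay within 500 kb. Prim1, the catalytic primase subunit, and Pold3, an accessory subunit of polymerase delta, had 3 tags each. Pold2, an accessory subunit of polymerase delta, and Pole2, one of polymerase epsilon, had 2 each. The catalytic subunits Pold1 and Pole, and the large primase subunit Prim2, had no listed loop.

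The clamp and its loader had loops in 5 of 6 genes. Pcna, the sliding clamp, had 15 tags in 10 loops (7 and 8 tags in the parts; Poisson interval 8.40 to 24.7). Its strongest loop held 4 tags, lay in the second part and ended at Cds2 over 9.95 kb. Rfc4 had 20 tags in 2 loops, and 19 of them joined it to Eif4a2, a translation initiation factor gene whose introns hold small nucleolar RNAs, over 19.9 kb with an FDR of 1.20e-06. The remaining loader subunits were far lower, with 5 tags at Rfc1, 3 at Rfc3, 2 at Rfc2 and no listed loop at Rfc5.

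Among genes for single-strand binding and lagging strand synthesis, Fen1, the flap endonuclease, had 19 tags in 16 loops (14 and 5 tags in the parts), of which 14 held a single tag. The strongest Fen1 loop joined it to the ferritin heavy chain gene Fth1 with 3 tags over 221 kb. Rpa1, the large subunit of replication protein A, had 10 tags in 8 loops, with 5 tags in each part, whereas Rpa2 had no listed loop. Lig1, the ligase, had 1 loop of 2 tags, to Chmp2a and Ube2m over 241 kb. The deoxynucleotide supply genes, Rrm1 and Rrm2 for ribonucleotide reductase and Tyms for thymidylate synthase, had no listed loop in either part, and with 3 genes the Wilson interval of their looped share reached 56.1%.

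Strong loops of these genes were short and few. The span of strong loops was not measured over the whole list, where a loop of 5 tags at the Tpra1 anchor near Mcm2 spanned 384 kb. A loop of at least 4 tags was present at 5 of the 40 genes, 12.5%, where the background was 8.50% of protein-coding genes. There were 8 such loops, and the same 8 were the loops of these genes shorter than 100 kb. Such short loops made up 5.63% of the 142 and 5.13% of all loops in the list, where their median was 9 tags. They were 3 at Cdc6, 2 at Mcm7 and 1 each at Rfc4, Cdt1 and Pcna, and they held 105 of the 275 tags, or 38.2%. Strong here refers to the tag count and not to the FDR. The FDR was 0.0180 for the loop of 11 tags at Mcm7, 0.0262 for that of 11 tags at Cdc6, 0.0272 at Pcna and 0.0408 at Cdt1. The others had an FDR under 0.01. All 3 at Cdc6 started from the anchor at its 3′ end and ran into Rara, the retinoic acid receptor alpha gene, with 11 tags over 5.58 kb and 13 tags over 14.2 kb to Rara TSSs and 16 tags over 45.7 kb into its body. That last distal anchor, chr11:98967207-98971186, overlapped coding exons of Rara and lay 6.79 kb from the nearest TSS. Leaving out the transcript behind that anchor left 4 genes with a loop of at least 4 tags.

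**Figure D3:**
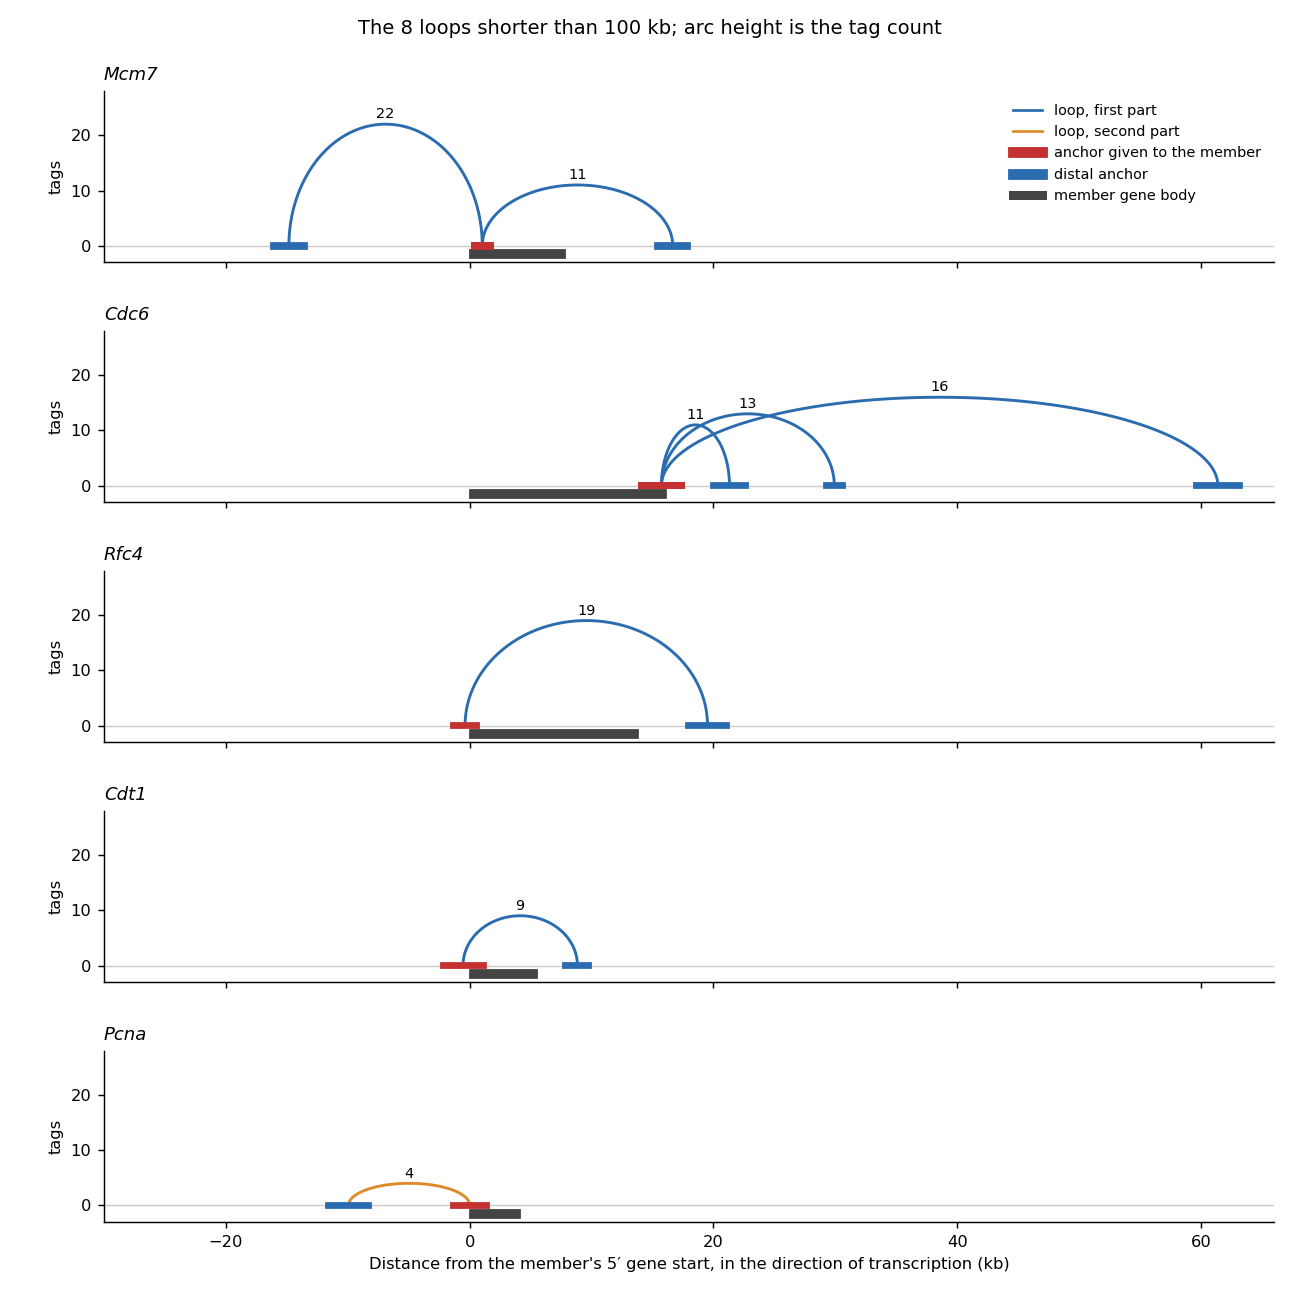
Anchors and loops shorter than 100 kb at Mcm7, Cdc6, Rfc4, Cdt1 and Pcna, drawn by distance (kb) from the 5′ start of each gene in its direction of transcription; arc height is the tag count. Red anchors lie within 0.195 kb of the gene start in every panel except that of Cdc6, where the anchor lies 13.9 kb into the gene.

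The other 134 loops were long and thin. They held 170 tags, none held more than 3, and no loop of a single tag in the whole list was shorter than 109 kb. The median span of the 142 loops was 567 kb (order-statistic interval 495 to 830.3), against 500.3 kb for all loops, and 49 were longer than 1 Mb. Single-tag loops made up 71.1% (63.2 to 77.9) of the loops of replication genes, 30 loops held 2 tags and 3 held 3 tags. An FDR under 0.001 was met by 18 of the 142 loops (12.7%), at 13 genes, against 8.06% of all loops and 11.2% of protein-coding genes. An FDR threshold did not filter the 2 parts alike. A loop of 2 tags over 241 kb had an FDR of 0.0137 in the first part, at Cdc6, and 8.96e-04 in the second, at Lig1. The lowest FDR of a single-tag loop of these genes was 0.0262 in the first part and 0.0118 in the second.

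**Figure D4:**
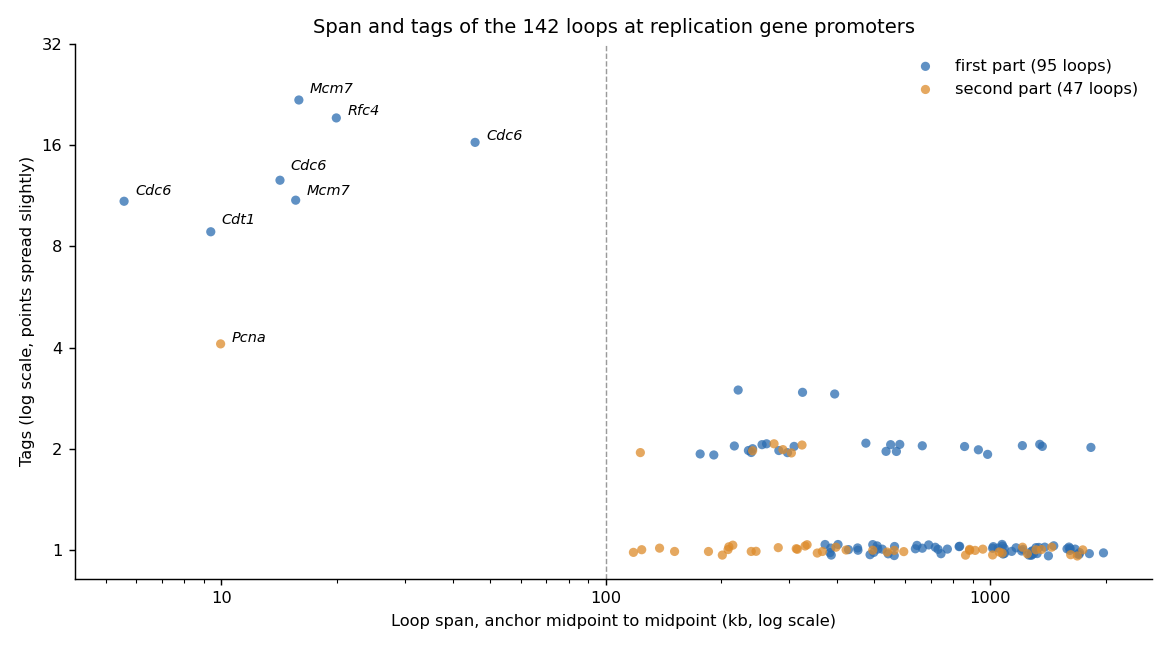
Span (kb) and tags of the 142 loops at replication gene promoters, both on log scales and with points spread slightly in the vertical, with the 95 loops of the first part in blue and the 47 of the second in orange. Every loop of at least 4 tags lies left of the dashed line at 100 kb, and all but 1 of these are in the first part.

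The 2 parts of the list overlapped in few contacts. Loops in both parts were present at 14 of the 40 genes, 35%, where the background was 24.3% of protein-coding genes. A further 8 genes had loops in the first part alone and 3 in the second alone. The first part held 79.6% of the tags of replication genes and 68.9% of all tags. A loop was counted as found in both parts when both of its anchors overlapped those of a loop in the other part, and this was the case for 12 of 142 loops (8.45%, 4.90 to 14.2), against 7.34% of all loops.

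These 12 loops were 6 contacts. Cdc6 met Erbb2, a receptor tyrosine kinase gene, over 495 kb with 1 tag in each part, and here the anchor was the one that overlaps the start of Cdc6. Pcna met Cenpb, the gene for a centromere protein, over 1075 kb in the second part and 1074 kb in the first, and it met the shared promoter of Mcm8 and Trmt6 over 563 kb, each with 1 tag a part. Fen1 met Ahnak with 2 tags and 1 tag, over 1213 and 1214 kb, and met the Lbhd1 locus with 1 tag a part over 1316 kb. Gins2 met an intron of Gse1 with 2 tags and 1 tag, over 216 and 214 kb, and this was the contact of the 6 that ended away from every TSS. None of the 8 strong loops was found in both parts. The share among all loops of at least 4 tags was not computed, and 8 loops are too few to set against the 7.34% of all loops.

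Contacts of replication gene promoters ended mostly at other promoters. Of 142 distal anchors, 128 lay within 2 kb of a TSS of another gene, which is 90.1% (84.1 to 94.0). Over all looped promoters, those of non-coding genes included, it was 78.6% of 15449 distal anchors. All 40 genes are protein-coding, and the share for looped protein-coding genes alone was not computed. The 14 anchors away from any TSS belonged to 11 genes, with 8 in the bodies of protein-coding genes and 6 outside. Their median distance to the nearest TSS was 6.89 kb, and the largest, at Gins2, was 69.7 kb. No loop joined a pair of the 40 genes, and no gene at a distal anchor was shared by any pair of them. The positions of the genes left little room for either. The closest pair, Gins2 and Cdt1 on chromosome 8, start at positions 120589304 and 122568015, and the longest loop of the 40 genes spanned 1972 kb. The absence of joint loops is therefore no result about contacts among replication genes. With the further replication genes and S phase regulators counted below, the contacts were those of Pcna with Mcm8, a helicase of the MCM family that acts in recombination, and of Orc6 with Rnaseh2a, the catalytic subunit of the enzyme that removes RNA from DNA, over 334 and 330.0 kb with 1 tag in each of 2 loops.

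Tags at a shared promoter anchor cannot be divided between the genes there. Another gene had a TSS at the promoter anchor of 14 looped genes, and for 8 of them it was protein-coding. These 8 held 117 tags, or 42.5% of the total. Mcm7 shared its anchor with Ap4m1, Mcm4 with Prkdc, Cdc45 with Ufd1, Orc6 with Vps35, Fen1 with Tmem258, Rpa1 with Smyd4, Orc1 with Prpf38a and Lig1 with Zswim9. A start on the other strand lay nearby for 9 of the 40 genes (22.5%), against 10.8% of protein-coding genes. Counted were 5′ ends of protein-coding genes within 1 kb on either side, so pairs that overlap are included. Of these 9 genes 7 had a loop, and Gins1, next to Abhd12, and Pole, next to Pxmp2, had none. Among the 31 others, 18 had a loop.

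The 15 genes with no listed loop differed in how far away the next anchor lay. The median distance from a TSS to the nearest anchor was 59.3 kb. Mcm2, at 2.56 kb, and Pold1, at 3.70 kb, were just outside the window, and the next nearest were Rpa2 at 10.3 kb, Pole at 15.6 kb, Gins4 at 17.8 kb and Rrm2 at 26.1 kb. With a window of 5 kb Mcm2 would have 13 loops with 22 tags (16 and 6 in the parts) from the promoter anchor of its neighbour Tpra1, and Pold1 would have 14 loops with 20 tags from that of Nr1h2, which encodes the liver X receptor beta. At the far end, Mcm5 lay 1754 kb, Prim2 763 kb, Rrm1 189.7 kb and Mcm3 130.4 kb from any anchor.

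Neighbourhoods differed between the genes with and without loops. Within 500 kb of the gene start, looped genes had a median of 19 protein-coding genes (3 to 56) and 38 loops (8 to 300), and the others 9 protein-coding genes (5 to 50) and 10 loops (0 to 240). The loop counts include a gene's own loops, so part of their difference follows from how the groups were split. The ranges overlapped, as Pold1, with 240 loops around it and none of its own, shows. No loop at all was listed within 500 kb of Mcm5 or Prim2. The part of gene density and of local H3K27ac in whether a gene had a loop was not tested.

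Further genes of the pathway were counted beside the 40. Of 37 other replication genes (remaining subunits, fork and checkpoint factors, primer removal, chromatin assembly and further nucleotide enzymes), 34 had a loop, which is 91.9% (78.7 to 97.2), with a median score of 3. Recql4, a helicase needed for origin firing, had the largest score at 46 tags, followed by Rnaseh2a at 18 and Chtf18, a subunit of an alternative clamp loader, at 15, and those without a loop were Orc3, Topbp1 and Dna2. Of 20 regulators of S phase, 16 had a loop (80%, 58.4 to 91.9), with a median score of 5. The largest scores there were 51 at Cdkn1b and 22 at Cdkn1a, which encode the inhibitors p27 and p21 of cyclin-dependent kinases, and 20 at E2f1. Both median scores lay within the interval of 0 to 5 around the median of 2 of the 40 genes. For the looped share, the interval of the 37 other replication genes lay above that of the 40 (62.5%, 47.0 to 75.8). The interval of the S phase regulators overlapped that of the 40. All of these lists were chosen with earlier results of these data known, and the difference between them was not tested.

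The looped share stayed above the background under every setting tried, but the margin varied. With loops of at least 2 tags 18 of the 40 genes kept a loop, 45% against 21.2% of protein-coding genes, and with an FDR under 0.01 it was 17, 42.5% against 17.5%. The FDR settings filter the 2 parts of the list unequally. In the first part of the list alone 22 genes had a loop, 55% against 35.1%, and in the second part 17 had one, 42.5% (28.5 to 57.8) against 35.0%, which lies within the interval.

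**Figure D5:**
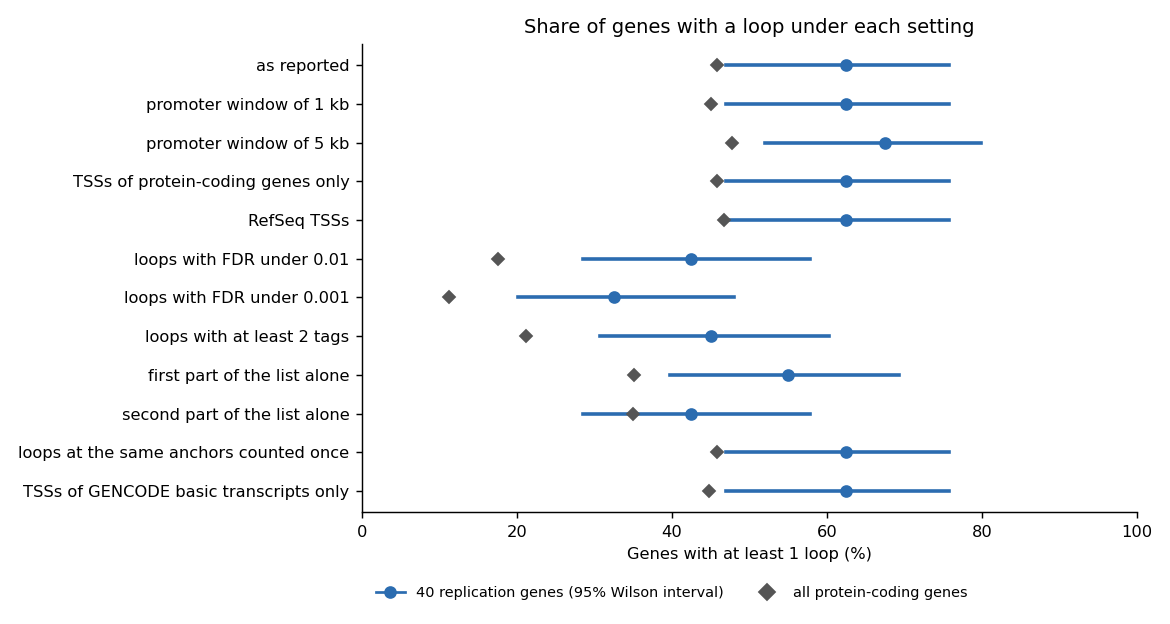
Percent of genes with at least 1 loop under each setting, for the 40 replication genes (blue circles, 95% Wilson intervals) and all protein-coding genes (grey diamonds). The circle is at 62.5% and the diamond at 45.8% as reported, and at an FDR under 0.001 they are at 32.5% and 11.2%.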

How the data were processed

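HiChIP against H3K27ac was performed by the authors on 2 hSS2 tumors, and the read pairs were mapped to mm10 with HiC-Pro 2.11.4 and called with hichipper 0.7.0 and its Mango statistics. The authors deposited 1 merged list that gives, for each loop, its count of paired-end tags, not normalized, and its FDR, a p-value adjusted for multiple testing with a threshold of 0.05. A supplementary legend of the study states that loops of the 2 tumors were called and then merged. It gives an FDR under 0.01, unlike the 0.05 of the methods, and the deposited list reached 0.0500. The rule of merging is not given in the sources used here. The list was found to hold 2 sorted parts, which were used together and not assigned to tumors. The ChIP-seq samples of the series were not analysed here.

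TSSs were those of all transcripts in GENCODE vM21, on the same GRCm38 assembly as mm10. A loop was given to a gene when an anchor overlapped the window of 2 kb around a TSS, the window of the study. The loop score was the sum of tags, and the span was the distance between anchor midpoints. Shares have Wilson intervals, scores exact Poisson intervals and medians order-statistic intervals, each at 95%. Because the list holds loops past its FDR threshold, no limit was set on the tags of genes without a listed loop. A depth of 41574 tags over 24244 loops, mostly at 1 tag, makes single loops imprecise. With 1 merged list and no values per tumor, groups were not tested against each other. The 40 genes and the 2 lists of further genes were chosen with earlier results of these data known. Named with full values were the 10 genes with the largest loop score, those with a loop of at least 4 tags and all genes without a loop. Further genes were named by role, and 1 contact is not reported here.

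Promoter sequences were those of RefSeq on GRCm38.p6, with 32 of 40 genes matched by symbol and the most upstream start used for each gene. Alternatives were TSSs of protein-coding genes alone or of RefSeq, windows of 5 and 1 kb, an FDR under 0.01 or 0.001, at least 2 tags, each part alone and loops at the same anchors counted once. TSSs of GENCODE basic transcripts were added after the data were seen. The assignment of loops to genes was tested on simulated data made from GENCODE promoters. The scripts ran in Python 3.11.15 with pandas 2.3.3, numpy 2.4.6 and scipy 1.17.1, and figures were drawn with matplotlib 3.10.9.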

Additional observations from a re-analysis of the deposited data

How the results depend on the processing

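No paired analysis was possible because the merged list has no values per tumor, and no replicate could be left out. The number of genes with a loop was between 17 and 27 under all alternatives except an FDR under 0.001, which left 13 genes, 32.5% against 11.2% of protein-coding genes. The share of single-tag loops was 0 at an FDR under 0.01 and under 0.001, since no single-tag loop of these genes had an FDR below 0.0118. It was 85.1% in the second part alone and does not apply with at least 2 tags. The median span was 325 kb at an FDR under 0.01, 359 kb under 0.001, 282 kb with at least 2 tags and 355 kb in the second part. The E2F core was found in 12 promoters with 1 more T before it and in 11 with the bases before the start alone. The Cdc6 score was 6 with a window of 1 kb, RefSeq TSSs or GENCODE basic transcripts, the last chosen after seeing the data, because its anchor at the 3′ end then has no TSS nearby. A window of 5 kb moved Mcm7 to 71 and Rfc4 to 28 tags. No loop joined a pair of the 40 genes under any alternative, but almost no pair lay close enough for one. At this depth a difference of a few tags is not detectable.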
